A study of Mus musculus with 2 samples.

Results

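Lipogenic alveolar type 2 (AE2) cells of control mouse lungs are described here: AE2 cells with much mRNA for the desaturase Scd1 and the lipogenic cofactor Mid1ip1 and for the endocytic receptor Lrp2, and with little Lyz1. They were chosen by measured values. In the 4 control libraries a cell barcode counted as an AE2 cell with at least 500 genes, at most 20% of its UMIs (unique molecular identifiers, counted mRNA molecules) from the mitochondrial genome, at least 1% of its UMIs from Sftpc, 3 or more of Lamp3, Abca3, Slc34a2, Napsa, Lpcat1 and Etv5 detected, and no Ptprc. Of the 4050 AE2 cells pooled over those libraries, 766 lay in the top quartile of the score Scd1+Mid1ip1+Lrp2 per 10000 UMIs and outside the top quartile of Lyz1. The 4 control libraries held 7038 cell barcodes and the whole series 14048.

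The study compared C57BL/6JRj mice of 3 months (young) and 18 months (old), 24 h after saline (control) or after 2.5 mg/kg lipopolysaccharide (LPS, a bacterial endotoxin that inflames the lung). Lungs were lavaged and digested with dispase, live EpCAM-positive (epithelial) cells were sorted, a different hashtag antibody marked each group, and equal numbers of cells from the 4 groups shared a 10x Genomics 3' lane. This was done in 2 independent experiments, so that each group has 2 libraries, numbered 1 and 2 by lane. The labels name no gene alteration in any group and do not say how many mice each library held, so the p-values below measure the spread between libraries.

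AE2 cells line the alveoli, make pulmonary surfactant and renew the alveolar epithelium. Surfactant is mostly phospholipid, rich in saturated phosphatidylcholine, with cholesterol and a few proteins, and its fatty acids are either made in the AE2 cell or taken up from blood. Acetyl-CoA leaves the mitochondrion as citrate, is freed by Acly, carboxylated by Acaca and built into palmitate by Fasn. Scd1 then puts a double bond into the product, and the same acetyl-CoA feeds the mevalonate pathway to cholesterol. Transcription of both pathways is known to be driven by the SREBP factors, which Insig proteins hold back when sterols are plentiful.

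Members were found in every control library: 107 of 743 AE2 cells in young control 1 (14.4%, exact 95% binomial interval 12.0 to 17.1%), 250 of 1146 in young control 2 (21.8%, 19.5 to 24.3%), 212 of 1063 in old control 1 (19.9%, 17.6 to 22.5%) and 197 of 1098 in old control 2 (17.9%, 15.7 to 20.3%). Young control 1 had the lowest share and young control 2 the highest, so both extremes were young libraries. These intervals cover counting error only. The control libraries held 6228266 to 10694651 UMIs, of which the members carried 602355 to 1615885. Cells of a library were not separated from the other groups of its lane by anything but the hashtag, and no barcode was shared between libraries of one lane in 12 pairs, while 2 were shared over 16 pairs of different lanes.

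The score had no gap at the cut. It ran continuously, with a median of 61.7 per 10000 UMIs, a 5th percentile of 17.3, a 95th of 152 and a maximum of 282, and the cut lay at 94.3. The member nearest the cut scored 94.4 and the nearest cell below it 94.3, and 474 cells, 182 of them members, scored within 10% of the cut. The members are therefore the upper range of a graded measure. A score without a gap cannot decide whether they form a separate type, which was not tested. The summed level of 9 AE2 markers was 259312 to 293609 CPM (UMIs of a gene scaled to a common library total) in members against 269244 to 304556 CPM in the other AE2 cells, lower in members in each library. The rule asked for these markers in both classes, so their levels do not compare identity.

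**Figure D1:**
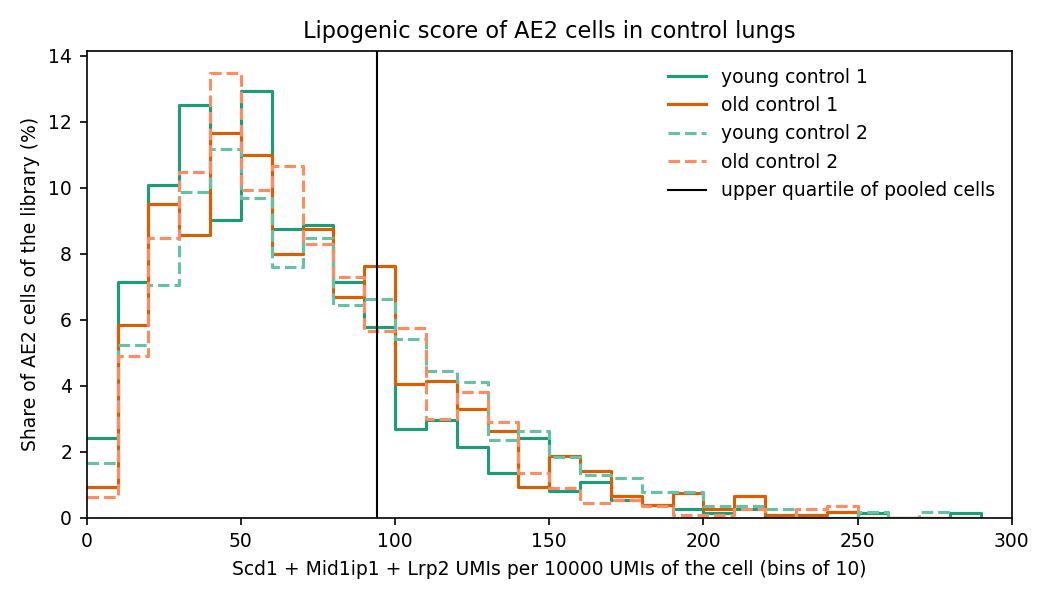
Share of each library's AE2 cells (y axis, %) by score, Scd1+Mid1ip1+Lrp2 UMIs per 10000 (x axis, bins of 10), in each of the 4 control libraries; the line marks the pooled upper quartile at 94.3. All 4 libraries have most cells below the line and a continuous tail above it, with no empty bin at the line.

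Scd1, the stearoyl-CoA desaturase, made up 87.4% of the score's UMIs over all control AE2 cells and 90.7% in members, so the rule is close to a rule on Scd1. Of the 766 members, 723 were in the top quartile of Scd1 alone, against 303 in that of Mid1ip1, which helps acetyl-CoA carboxylase to polymerise, and 314 in that of Lrp2, the receptor megalin. In members, Scd1 stood at 11422, 12001, 11798 and 11174 CPM (young control 1, young control 2, old control 1 and old control 2, the order used for all control values), and in the other AE2 cells at 4473, 5131, 4883 and 4833 CPM. Mid1ip1 was at 898, 882, 959 and 909 CPM in members and 640.2, 609, 681 and 669 CPM in the others. Members of every library were above the others of every library for both genes, which the rule itself produces.

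Lrp2 was at 242, 305, 265 and 291 CPM in members and 153, 181, 148 and 172 CPM in the others, and at least 1 UMI of it was found in 66.4 to 80.7% of members and 51.6 to 62.8% of the others. In leukocytes (2 or more Ptprc UMIs, 44 to 153 cells a library, median 4493.5 to 5719 UMIs per cell), which should lack Lrp2, 0 to 2.27% of cells had a UMI. Scd1 was at 65.4 to 128 CPM in these leukocytes. The median UMI count per AE2 cell was 5659 to 7503 in members. In Lyz1 the members had 13.3, 14.2, 10.4 and 24.0 CPM and the others 2902, 3678, 1951 and 1877 CPM. Lyz1, a lysozyme gene, was not detected in 2753 of the 4050 cells, so its quartile cut of 1.49 per 10000 UMIs separates few UMIs from none. Of 1013 score-high cells, 247 were also in the top quartile of Lyz1 and hence are not members. They are 24.4% of the score-high cells, where the Lyz1 quartile holds 25% of all AE2 cells.

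The 3 score genes were also read where they had not chosen the cells. When the score was built without Scd1, the 766 cells so chosen had Scd1 higher by 0.43 ± 0.08 on the log2 scale (mean ± SD over the 4 libraries, as for every control ratio below), with 0.54, 0.44, 0.38 and 0.38 in the single libraries. Of the members, 333 were also chosen that way. With cells chosen on Scd1 alone, Mid1ip1 was higher by 0.37 ± 0.05 and Lrp2 by 0.63 ± 0.09. Each of these was above 0 in all 4 libraries, so the score genes were higher in the same cells.

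Each cell's UMIs were also divided at random into 2 equal portions. Cells were chosen on one portion and the genes were read in the other. The first portion chose 758 cells and the second 787, and 518 cells were chosen by both, 68.3% of the first set and 65.8% of the second, beside 19.4% of all AE2 cells. Read in UMIs that had not chosen the cells, Scd1 was higher by 1.15 ± 0.07, Mid1ip1 by 0.42 ± 0.12 and Lrp2 by 0.75 ± 0.15. The values from all UMIs were 1.26 ± 0.06, 0.49 ± 0.04 and 0.75 ± 0.07. The ratios were thus close to those from all UMIs, while the cells chosen were in part different ones.

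For the other genes, members were compared with the other AE2 cells of the same library by the log2 ratio of CPM (1 CPM added to both). A gene is counted as higher or lower below when the mean log2 ratio was at least 0.32 in size with the same sign in all 4 libraries, among 4490 genes of at least 20 CPM. Because the cells were selected on expression, this contrast is a description and has no p-value. By this rule 156 genes were higher in members (3.47% of those measured) and 130 were lower (2.9%), and the median ratio over all measured genes was -0.01. A limit of 1.5-fold left 20 higher and 34 lower, a score without Scd1 84 and 91, and comparison without old control 1, young control 2 or old control 2 left 200, 196 or 204 lower.

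Of the 23 lists, cholesterol synthesis had the most genes counted as higher. Of 18 measured genes of the list, 14 were higher and none lower, with a median of 0.48. Of all measured genes, 3.47% were higher and 2.9% lower. Among these, along the pathway, were Acat2, Hmgcs1, Pmvk, Mvd, Idi1, Fdps, Fdft1, Sqle, Lss, Cyp51, Msmo1 and Nsdhl. They cover the mevalonate steps, the step to squalene and the sterol steps. Lss, which closes squalene oxide into lanosterol, stood at 54.8, 44.6, 61.5 and 49.3 CPM in members and 25.2, 26.1, 31.4 and 27.4 CPM in the others, a log2 ratio of 0.90 ± 0.15. The members of each library were above the other AE2 cells of all 4.

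Pmvk, phosphomevalonate kinase, was at 209, 331, 214 and 223 CPM in members and 134, 173, 137 and 119 CPM in the others (0.78 ± 0.16). Fdps, farnesyl diphosphate synthase, had a ratio of 0.70 ± 0.13 and Nsdhl, a sterol dehydrogenase, of 0.64 ± 0.17. Hmgcs1, which makes HMG-CoA, was at 153, 236, 290.1 and 239.6 CPM against 150.5, 141, 188 and 177 CPM (0.46 ± 0.32), and in young control 1 the members hardly differed from the others (0.02). The list counts rest on Scd1 in part: with the score built without it, 8 of the 18 were higher, and at 1.5-fold 5 were. With cells chosen on one portion of the UMIs and genes read in the other, 10 were higher and 1 lower.

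The promoters of these genes are shown because CCAAT, the box bound by NF-Y, which is known to work beside SREBP at sterol genes, recurs in them. The windows are the 250 bases before the RefSeq start in GRCm38.p6, 5′ to 3′ on the gene's strand. Capitals mark CCAAT or its reverse complement ATTGG, and the sterol element TCACNCCAC on either strand. The windows lie at chr13:119690101-119690350 (+), chr13:8885356-8885605 (+), chr10:76531355-76531604 (+) and, for the fatty acid synthase gene, chr11:120824548-120824797 (-).
Hmgcs1: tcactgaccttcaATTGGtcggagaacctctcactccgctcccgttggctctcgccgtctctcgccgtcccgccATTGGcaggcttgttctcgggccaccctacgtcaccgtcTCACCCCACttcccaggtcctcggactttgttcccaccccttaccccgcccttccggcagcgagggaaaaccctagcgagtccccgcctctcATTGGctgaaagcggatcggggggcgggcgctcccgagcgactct
Idi1: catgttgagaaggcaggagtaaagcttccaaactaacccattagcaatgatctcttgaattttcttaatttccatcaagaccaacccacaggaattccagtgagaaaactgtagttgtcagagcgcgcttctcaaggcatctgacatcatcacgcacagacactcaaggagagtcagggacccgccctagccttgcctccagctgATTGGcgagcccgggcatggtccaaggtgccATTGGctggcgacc
Lss: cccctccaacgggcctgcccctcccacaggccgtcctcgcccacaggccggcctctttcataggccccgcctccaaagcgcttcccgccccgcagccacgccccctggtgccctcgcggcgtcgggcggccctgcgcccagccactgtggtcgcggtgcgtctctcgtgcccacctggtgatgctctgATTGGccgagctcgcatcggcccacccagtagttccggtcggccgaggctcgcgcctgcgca
Fasn: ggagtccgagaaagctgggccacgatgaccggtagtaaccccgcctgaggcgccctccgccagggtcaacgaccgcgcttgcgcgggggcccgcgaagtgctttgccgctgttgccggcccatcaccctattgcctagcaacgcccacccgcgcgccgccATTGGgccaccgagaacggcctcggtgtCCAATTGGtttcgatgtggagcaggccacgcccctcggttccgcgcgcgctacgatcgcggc

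Hmgcs1 held 3 CCAAT boxes and 1 sterol element, Idi1 held 2 boxes, Lss 1, and Fasn 3, of which a pair overlaps in CCAATTGG. Of the 14 higher cholesterol genes, 9 had a RefSeq promoter to read, and 8 of the 9 held CCAAT (88.9%). This compares with 40.0% of the 3617 measured genes with such a promoter and 37.5% of all 27025 genes with one. The sterol element was in 1 of the 9 (11.1%, Hmgcs1), against 1.27% of the measured genes and 1.22% of all genes with a promoter. The E-box CACGTG was in none of the 9, against 11.1% of the measured genes and 6.86% of all. Among all genes higher in members, CCAAT was in 46 of 120 (38.3%), close to the share of the measured genes. For the higher fatty acid genes it was in 2 of 5, Fasn and Slc25a1. A match gives the letters in the window and does not show that a factor was bound.

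Fatty acid synthesis genes were also higher. Of 15 measured genes of the list, 7 were higher and none lower (median 0.32), beside 3.47% higher and 2.9% lower of all measured genes. In all 4 libraries 13 were above 0, beside 628 of all 4490 measured genes. Fasn was at 1089, 1128, 1048 and 997 CPM in members and 674, 700.2, 678 and 687 CPM in the others (0.64 ± 0.07). Acly, which frees acetyl-CoA from citrate, was at 393, 368, 363 and 347 CPM against 258, 249.6, 251 and 261 CPM (0.53 ± 0.08). For both genes the lowest member library was above the highest other library. Without Scd1 in the score 2 of the list's genes were higher, as at 1.5-fold.

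The steps before and after Fasn were higher as well. Slc25a1, the mitochondrial citrate carrier, had a ratio of 0.34 ± 0.20 and Acaca of 0.43 ± 0.04. Scd2, a close paralog of Scd1, was at 820.1, 673, 774 and 681 CPM in members and 552, 473, 535 and 478 CPM in the others (0.53 ± 0.03). Scd1 and Scd2 are similar in sequence and reads could in part be divided between them. The other paralogs were near absence, with Scd3 at most 0.8 CPM and Scd4 at most 1.66 CPM. Thrsp, the paralog of Mid1ip1 that is known as the lipogenic factor of liver, was at 3.32 to 12.0 CPM in members and 7.67 to 11.1 CPM in the others, without a common direction. Aacs, which activates acetoacetate for lipid synthesis, had a ratio of 0.75 ± 0.25 at low levels, 48.1, 38.4, 51.9 and 38.1 CPM against 26.3, 23.7, 24.9 and 27.5 CPM, and Fads1, a polyunsaturated fatty acid desaturase, 0.41 ± 0.16.

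**Figure D2:**
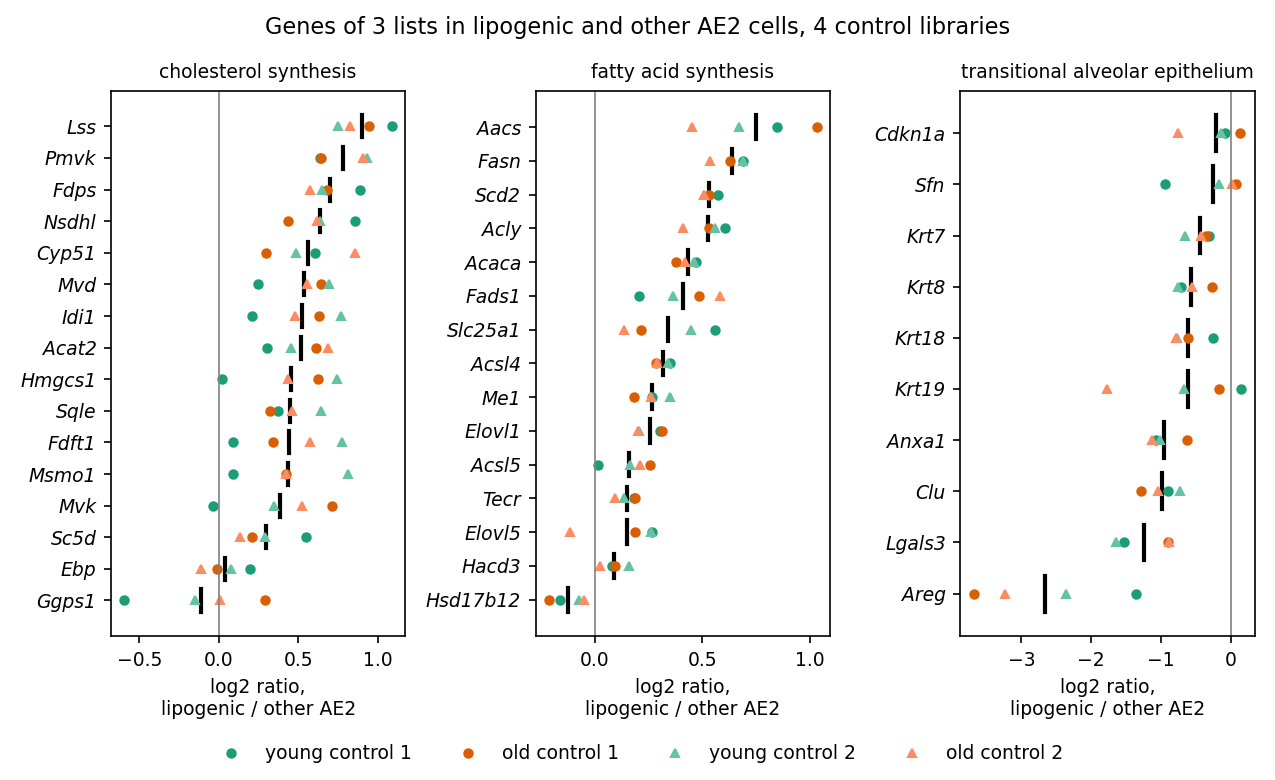
Log2 ratio of CPM, lipogenic over other AE2 cells (x axis), for measured genes of 3 lists (y axis; 16 of the 18 cholesterol genes are shown). Points are the 4 control libraries and black bars their mean. Most cholesterol and fatty acid genes lie right of 0 in every library (13 of the 16 shown and 13 of 15), and 7 of 10 transitional genes lie left of 0 in every library. Of all 4490 measured genes, 628 were above 0 and 558 below 0 in every library.

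The messages of the SREBP factors themselves were nearly flat. Srebf1 was at 89.6, 97.2, 82.3 and 78.2 CPM in members and 77.8, 92.7, 88.8 and 90.4 CPM in the others (-0.01 ± 0.18), and Srebf2 at a ratio of 0.17 ± 0.16. The groups overlapped for both. Insig1, a known SREBP target that retains the SREBP complex in the endoplasmic reticulum, was at 123, 139.9, 152 and 158 CPM against 99.2, 103, 111 and 103 CPM (0.45 ± 0.13), and Scap, the escort of SREBP, had 0.32 ± 0.26, which turned to -0.21 with a score without Scd1 and was 0.06 in cells chosen on one portion of the UMIs. Fabp5, a fatty acid binding protein of high abundance in AE2 cells, was at 4564, 3847, 4042 and 3805 CPM against 2855, 2465, 2491 and 2443 CPM (0.66 ± 0.03), with the same ratio in all libraries to within a few hundredths. Insig1 and Fabp5 were the 2 higher genes of the 12 measured in this list.

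Lipid handling beyond synthesis was mixed. Of 14 measured phospholipid and triglyceride genes, 3 were higher and none lower: Pcyt2, the phosphatidylethanolamine enzyme (0.44 ± 0.07), Lpcat3 (0.36 ± 0.12) and Cds2 (0.33 ± 0.18). Among 12 uptake, binding and efflux genes, Apoc1 (0.42 ± 0.17), the lysosomal cholesterol carrier Npc2 (0.37 ± 0.06) and the sterol carrier Stard4 (0.35 ± 0.16) were higher, and Vldlr, the receptor for triglyceride-rich particles, was lower (-0.53 ± 0.27). In the droplet list of 9, Plin2, the droplet coat protein, was higher (0.40 ± 0.14) and Abhd5, the activator of droplet lipase, lower (-0.41 ± 0.23). Of 17 fatty acid oxidation genes, none was higher and 1 was lower, Hadh (-0.42 ± 0.16), with a median of -0.05. None of 7 measured partners of megalin in endocytosis was counted in either direction.

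Outside the lists, the gene with the largest mean ratio was Mfsd2a, the transporter of lysophosphatidylcholine carrying docosahexaenoic and other long fatty acids. It was at 59.8, 101, 86.3 and 95.2 CPM in members and 34.5, 35.9, 33.8 and 35.3 CPM in the others, a mean of 2.37-fold (SD 0.32 on the log2 scale). The members of each library were above the other cells of all 4, in young control 1 by the least. Lrg1, a secreted leucine-rich glycoprotein of the acute phase, was at 1189, 1482, 748 and 992 CPM against 557, 712, 395 and 572 CPM (0.97 ± 0.14), with both classes highest in young control 2 and lowest in old control 1. Il33, an alarmin kept in the nucleus, was at 589, 660.3, 613 and 622 CPM against 395, 303, 345 and 334 CPM (0.86 ± 0.22), and its groups did not overlap. Among the 10 highest were further Itih4, an inter-alpha-trypsin inhibitor chain (0.92 ± 0.15), Heatr1, which acts in ribosome synthesis (0.79 ± 0.06), Ptges, a prostaglandin E synthase (0.76 ± 0.11), and Cpeb3, an RNA-binding protein (0.75 ± 0.37), next to Lss, Pmvk and Aacs.

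Surfactant genes differed little. Of 18 measured genes of that list other than the selecting ones, Scd2 and the mucin Muc1 (0.33 ± 0.08) were higher and Ctsh, a protease that processes surfactant protein, was lower (-0.48 ± 0.15). The ratios were 0.11 ± 0.02 for Sftpb, -0.20 ± 0.04 for Sftpa1 and, among selecting genes, 0.26 ± 0.03 for Lamp3 and 0.26 ± 0.09 for Slc34a2. Sftpc took a median of 24.3, 22.7, 21.2 and 22.5% of a member's UMIs and 25.7, 23.9, 22.3 and 23.3% of another AE2 cell's. It was thus slightly lower in members in each library.

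Genes of the transitional alveolar epithelium, the state between AE2 and flat type I cells seen in repair, were lower in members. Of 10 measured, 7 were lower and none higher (median -0.61), beside 2.9% lower and 3.47% higher of all measured genes. Lgals3, galectin-3, was at 18.3, 32.8, 23.2 and 26.8 CPM in members and 54.5, 105, 44.2 and 50.1 CPM in the others (-1.24 ± 0.41). Clu, clusterin, was at 69.7, 115, 41.6 and 49.3 CPM against 131, 191, 103 and 103 CPM (-0.99 ± 0.24), lower in members of each library, though the member value of young control 2 was above the others' value in old control 1 and 2. Anxa1, annexin A1, had -0.96 ± 0.23 and the keratins Krt8, Krt18 and Krt7 had -0.57 ± 0.22, -0.61 ± 0.25 and -0.44 ± 0.16. For Krt8 the groups did not overlap.

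Areg, the growth factor amphiregulin, had the lowest ratio of all (-2.66 ± 1.02), but on few molecules: members had 4, 5, 1 and 5 UMIs of it, in 3, 4, 1 and 4 cells. S100a6, a calcium-binding protein, had -1.64 ± 1.19, an SD nearly as large as its mean. Chia1, an acidic chitinase, was at 161, 147, 206 and 364 CPM against 302, 287, 474 and 712 CPM (-1.01 ± 0.13). The remaining lowest genes were Ndnf (-1.15 ± 0.25), 2610028H24Rik (-1.13 ± 0.79) and Spink5, a protease inhibitor (-1.01 ± 0.13). Jchain, the antibody joining chain, is given without a fold: members had no UMI of it, and the others had 3, 1, 608 and 3, of which 430 came from 1 cell of old control 1.

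Markers of other cell types were read beside these values. The summed level of 8 club and secretory markers was 1288 to 3444 CPM in members and 1963 to 5499 CPM in the others, lower in members in all 4 libraries and carried by Scgb1a1, at 2316, 1147, 2873 and 3293 CPM against 4963, 1826, 5275 and 4915 CPM (-0.81 ± 0.23, and -0.21 without the 5% of cells with most UMIs). The part of this in the lower genes was not tested. The 5 basal, 6 T cell, 5 NK cell, 4 mesothelial and 4 erythroid markers were all at 0 in members. Of 7 lipofibroblast and adipocyte markers 6 were at 0, among them Adipoq and Plin1, and their sum was 0 to 2.11 CPM. Alveolar macrophage markers summed to 13.3 to 21.7 CPM in members and 18.9 to 40.5 CPM in the others, with Marco at 0 in members.

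B cell markers summed to 21.9 to 42.1 CPM in members and 37.6 to 509 CPM in the others, with the high end in old control 1. The mitochondrial share of a member's UMIs had a median of 7.33, 7.55, 8.71 and 8.16%, and of another AE2 cell's 6.78, 7.08, 7.96 and 7.58%. It was higher in members in every library. Of the 13 genes of the mitochondrial genome, 11 were above 0 in all 4, beside 628 of all 4490 measured genes. None was above 0 by the 0.32 that counts as higher. Depth was alike, with median UMIs per cell of 5659, 6561, 5814.5 and 7503 in members and 5754.5, 6546, 5828 and 7005 in the others.

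In the chemokine and cytokine list 3 of 6 measured genes were counted: Cxcl17 (0.53 ± 0.21, and 0.27 without young control 2) and Il33 were higher, and Cxcl2 was lower (-0.70 ± 0.40, -0.45 without old control 1 and 0.10 in cells thinned to 3000 UMIs). In the acute phase list 3 of 10 were counted: Lrg1 and Lbp, the LPS-binding protein (0.37 ± 0.05), were higher and Saa3, a serum amyloid, was lower (-0.41 ± 0.42, -0.20 without young control 1 and -0.02 in cells chosen on Scd1 alone). Of 14 immediate-early and heat shock genes, Fosl2 was higher (0.43 ± 0.27, 0.27 without young control 2) and Jun (-0.33 ± 0.18) and Hspb1 (-0.89 ± 0.20) were lower. Of 13 genes of junctions and ion transport, the chloride channel Cftr (-0.77 ± 0.35, -0.28 in cells chosen on one portion of the UMIs) and the cotransporter Slc12a2 (-0.33 ± 0.08) were lower.

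In antigen presentation by MHC class II, 1 of 6 was lower (H2-Eb1, -0.48 ± 0.16). Of the 6, 4 were below 0 in all 4 libraries and none was above 0 in all 4 (median -0.28). This stands beside 558 below 0 and 628 above 0 of all 4490 measured genes. In the antioxidant list of 22, Gclc, the first enzyme of glutathione synthesis, was higher (0.56 ± 0.04), and Gstm1 and Gsta4 were lower (-0.61 ± 0.32 for Gstm1). Vegfa, the endothelial growth factor, was higher (0.52 ± 0.07) and was the sole counted gene of 10 type I genes and of 12 glycolysis and hypoxia genes. Neither direction was counted for any of the 5 measured genes that go with Bex2 and S100g.

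Single ratios also depended on Scd1 being in the score. Without it the ratio was 0.32 for Fasn, 0.22 for Acly, 0.21 for Scd2, 0.24 for Fabp5, 0.39 for Pmvk, 0.45 for Fdps and 0.24 for Insig1. It was 0.09 for Apoc1, 0.18 for Plin2, 0.19 for Cds2, 0.29 for Pcyt2 and -0.23 for Vldlr. Among the other genes named it was 0.54 for Itih4, 0.45 for Cpeb3, 0.48 for Heatr1, 0.31 for Vegfa, 0.18 for Muc1 and 0.19 for Lbp, and on the lower side -0.23 for Chia1, -0.52 for 2610028H24Rik, -0.63 for Spink5, -0.24 for H2-Eb1, -0.49 for Hspb1 and -0.12 for Slc12a2. These are over 1.5 times smaller than the values above. Lss, Nsdhl, Aacs, Mfsd2a, Il33, Lrg1, Lgals3, Clu and Anxa1 moved by less than 1.5 times. Without young control 2, Cds2 was at 0.21. In cells thinned to 3000 UMIs, Stard4 was at 0.11 and Jun at -0.15, and in the top 10% of the score Fosl2 was at 0.02.

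Along the score the differences were graded. The AE2 cells outside the Lyz1 top quartile were divided at the pooled quartiles of the score into 4 groups (764, 749, 758 and 766 cells, the last being the members). From the lowest to the highest group the mean over the 4 libraries went through 465, 663, 804 and 1066 CPM for Fasn, 14.2, 26.2, 35.8 and 52.6 CPM for Lss, and 10.5, 30.9, 53.0 and 85.7 CPM for Mfsd2a. Fabp5 went through 1588, 2429, 3222 and 4064 CPM. Lgals3 took the values 107, 58.2, 32.0 and 25.3 CPM and Anxa1 80.6, 31.3, 21.0 and 20.8 CPM. Fasn, Lss, Mfsd2a and Fabp5 were thus higher at each step, while for Anxa1 most of the difference lay between the lowest group and the next. Not every lipid gene was higher at each step: Stard4, Thrsp and Vldlr were not.

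**Figure D3:**
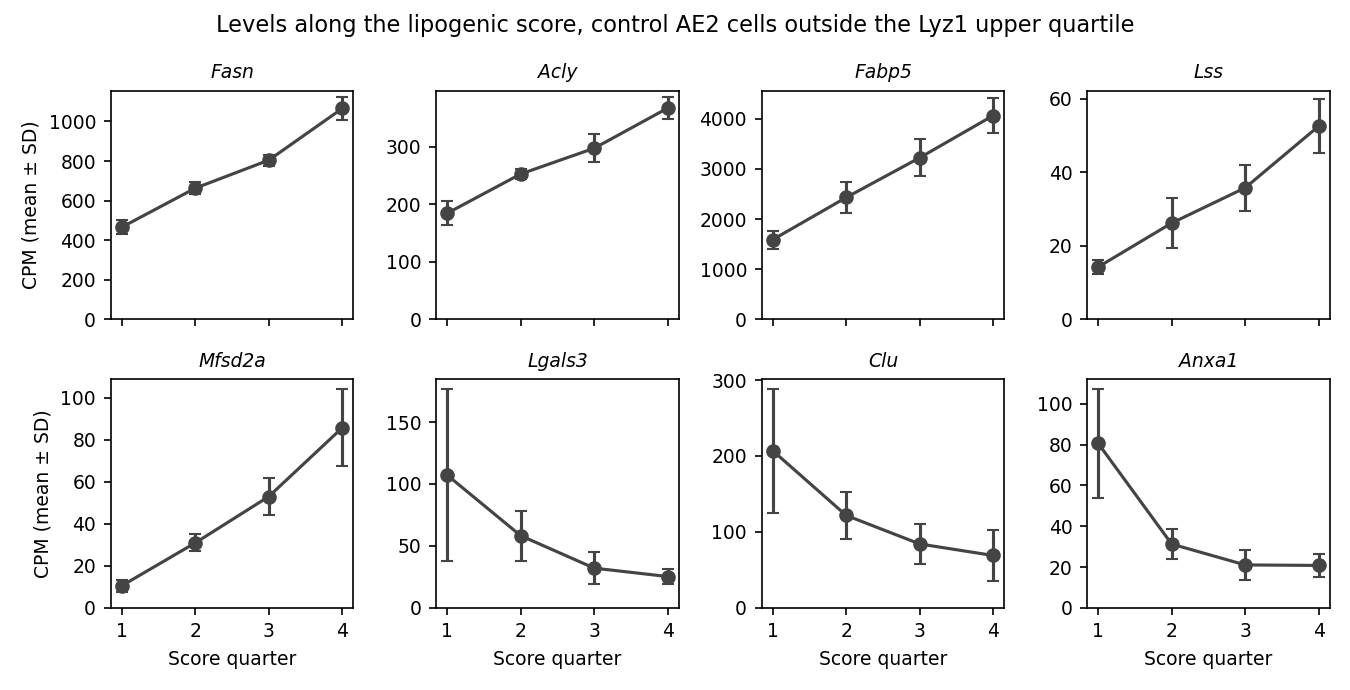
CPM (y axis, mean ± SD over the 4 control libraries) of 8 genes by quartile group of the score (x axis, lowest to highest), in AE2 cells outside the Lyz1 upper quartile. Fasn, Acly, Fabp5, Lss and Mfsd2a increase from group to group, and Lgals3, Clu and Anxa1 decrease.

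Across single cells within a library, Spearman's rho between Scd1 and Fasn per 10000 UMIs was 0.442 to 0.508, that between Scd1 and Mid1ip1 0.238 to 0.27, and that between Scd1 and Lyz1 -0.0415 to 0.0417. These are given as descriptions over cells that share library and depth.

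The share of members did not separate the ages. It was 18.1 ± 5.24% in the 2 young libraries (SD, n = 2) and 18.9 ± 1.42% in the 2 old ones, a difference of 0.835 percentage points (two-sided exact permutation test, p = 1, where 2 against 2 cannot go below 0.333). Within lane 1 the old library was higher and within lane 2 the young one. Without young control 1 the difference was -3.58 points and without young control 2 it was 5.35.

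Within the members, edgeR's quasi-likelihood test on UMIs summed per library compared old with young, which the choice of cells had not used. Of 7841 genes, 28 were higher in old (0.357%) and 36 lower (0.459%) at an adjusted p (Benjamini-Hochberg) under 0.05. Nrn1, neuritin, a membrane-anchored protein, stood at 110, 72.4, 314 and 251 CPM (young control 1 and 2, old control 1 and 2, library sizes scaled by TMM), a log2 change of 1.74 ± 0.15 (SE, edgeR adjusted p = 7.18e-10). H2-Q7, a non-classical MHC class I gene, was at 12.0, 20.2, 74.9 and 74.9 CPM (2.06 ± 0.23, edgeR adjusted p = 1.58e-07), and its neighbour H2-Q6, with which it could share reads, rose by 1.74. Both old libraries were above both young ones for each of these genes.

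Fmo2, a flavin monooxygenase, was at 8.58, 1.89, 26.8 and 17.1 CPM (2.52 ± 0.48, edgeR adjusted p = 0.00311), and Ttn rose by 2.25. Both rest on few molecules in the young libraries, as does H2-Q6. In young control 1 and 2, Ttn was at 5.15 and 3.15 CPM and H2-Q6 at 5.15 and 5.67 CPM. The members there held 602355 and 1615885 UMIs in all. Tspan8, a tetraspanin, fell from 56.7 and 64.9 CPM in young to 17.3 and 22.8 CPM in old (-1.62 ± 0.22, edgeR adjusted p = 1.07e-05). Sbno2 fell by 1.39. Meg3 also passed (-2.59, edgeR adjusted p = 0.0339), but its 5, 26, 6 and 0 UMIs came from 1, 5, 1 and 0 member cells. DESeq2 called 4 higher and 3 lower. edgeR called 4 and 3 without young control 2, and 16 and 17 without old control 1.

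No gene of the 2 lipid synthesis lists was called with age, which does not show that none changed. None of 21 tested fatty acid synthesis genes and none of 21 cholesterol synthesis genes passed edgeR's test at an adjusted p under 0.05. At an unadjusted p under 0.05 there were 1 and 4 of them, beside 703 of all 7841 tested genes. DESeq2 called none of the genes of these lists. In the other AE2 cells, which are more numerous and gave 10670 genes, 151 rose with age (1.42%) and 196 fell (1.84%). Counts in the 2 classes cannot be compared directly because the members had fewer cells.

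The difference between the age effects in members and in the other AE2 cells was tested by its own term. It passed for 2 of 9732 genes (0.0206%), with 491 at an unadjusted p under 0.05. No gene passed without the library block. Without young control 1 there were 7 genes and without young control 2 there were 5. Neither of the 2 genes below passed without young control 2 or without old control 2. Nrn1 rose more in members than in the others (difference 0.66 ± 0.13, edgeR adjusted p = 0.0411). The other AE2 cells had 129, 94.3, 251 and 197 CPM. A UMI of Nrn1 was found in 28.0 and 18.4% of young and 57.5 and 45.7% of old members. Meg3 was the other (-3.66 ± 0.67, edgeR adjusted p = 0.0411), with member UMIs of 5, 26, 6 and 0. Of 23 fatty acid and 21 cholesterol synthesis genes none passed, and DESeq2 called 0 genes in all, with 14 at an unadjusted p under 0.05. In MHC class II, a list picked after its values were seen, none of 8 tested genes passed. By edgeR 6 of the 8 had an unadjusted p under 0.05, beside 491 of all 9732. The differences in this list ran from 0.21 to 1.84.

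After LPS almost no AE2 cell reached the control cuts. The share that passed both was 0.255, 0.323, 0.245 and 0.726% (young LPS 1, young LPS 2, old LPS 1 and old LPS 2, the order of all LPS values), from 2, 3, 3 and 9 cells. This is 0.387 ± 0.229% (SD, n = 4) against 18.5 ± 3.17% in the controls, 18.1 points lower (two-sided exact permutation test, p = 0.0286, the smallest value 4 against 4 allows). The cuts were quartiles of the control cells themselves, so the rule set the pooled control share. The test also did not use the pairing of libraries by lane and age. All LPS libraries were below all controls, in each lane and at each age. The median score of LPS AE2 cells was 13.1 per 10000 UMIs.

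**Figure D4:**
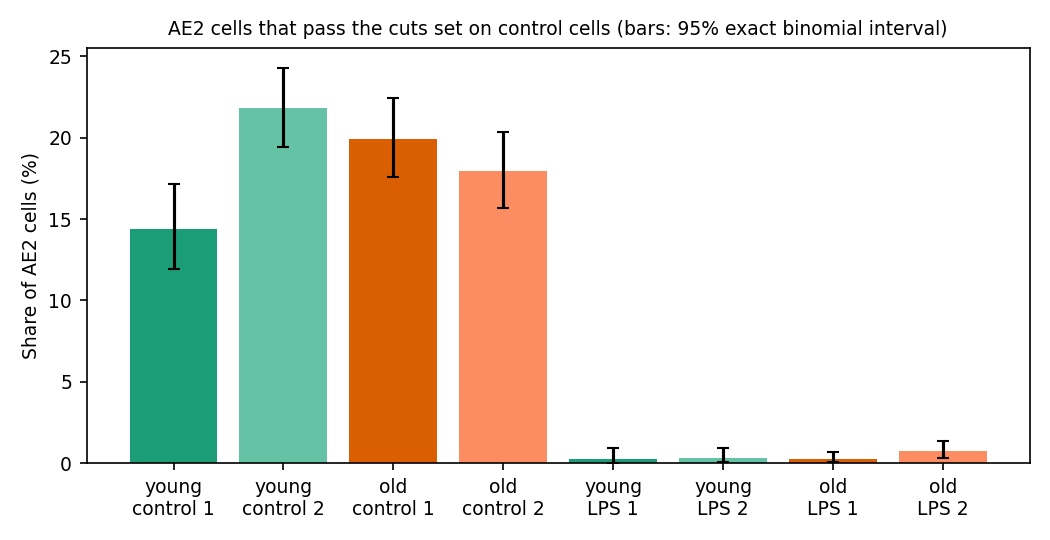
Share of AE2 cells (y axis, %) that pass the score and Lyz1 cuts of the control cells in each of the 8 libraries (x axis), with exact 95% binomial intervals. The 4 control libraries lie between 14.4 and 21.8%, and the 4 LPS libraries between 0.245 and 0.726%.

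The same contrast was then made in the LPS libraries, which the rule had not used, with the quartiles set again on their 4178 pooled AE2 cells and a score cut of 22.1. This gave 111 of 785, 231 of 930, 88 of 1224 and 326 of 1239 score-high cells, 756 in all. The cut lay below the lower quartile of the control score, 39.5. The 3 score genes summed to 3213 to 3659 CPM in these cells, below the 5266 to 5921 CPM of control AE2 cells that were not members. Score-high here is thus relative to the other LPS cells and does not reach the control level. They were tested against the other AE2 cells of the same library with edgeR's quasi-likelihood test and the library as a block. These cells, too, were selected on their own score. A gene that goes with the score over single cells thus differs here through the choice of cells. A p-value here says only how uniformly it did so over the libraries. In this contrast, rose and fell mean higher and lower in score-high cells. Of 9855 genes, 883 were higher (8.96%) and 1025 lower (10.4%) at an adjusted p under 0.05, and the median log2 change over all genes was 0.01. Without old LPS 2, which held 326 of the score-high cells, the counts were 401 and 552, without the library block 183 and 212, and with DESeq2 352 and 491. With cells chosen on one portion of the UMIs and genes read in the other they were 528 and 662.

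Fatty acid synthesis was again higher: 14 of 22 tested genes rose and none fell (median 0.45). Fasn was at 659.9, 630.0, 589 and 602 CPM in score-high cells and 375, 408, 248 and 366 CPM in the others (0.83 ± 0.08, SE, edgeR adjusted p = 1.46e-07). Scd2 was at 234, 326, 175 and 298 CPM against 131, 189, 93.6 and 157 CPM (0.86 ± 0.06, edgeR adjusted p = 8.89e-18). Both genes were higher in each library. Acly rose by 0.56 and Fads1 by 0.76.

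In cholesterol synthesis 11 of 21 rose and Ebp, the sterol isomerase, fell (median 0.30). Lss was at 48.7, 51.5, 25.5 and 41.0 CPM against 30.4, 38.3, 18.5 and 21.0 CPM (0.67 ± 0.12, edgeR adjusted p = 2.48e-05), and Hmgcs1 rose by 0.45 (edgeR adjusted p = 5.73e-07). Pmvk had 1.41 ± 0.28 (edgeR adjusted p = 0.0627), not past the threshold. The counts depend on the fit. Without the library block 5 fatty acid and 1 cholesterol gene rose, with DESeq2 9 and 6, without old LPS 2 9 and 5, with cells chosen on one portion of the UMIs 11 and 9, and with the control cuts, which leave 17 cells, 1 and 1.

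Srebf1 rose in the score-high LPS cells (0.56 ± 0.11, edgeR adjusted p = 3.20e-05), from 42.8, 41.0, 31.5 and 40.7 CPM in the others to 59.3, 54.4, 54.0 and 62.9 CPM. In the controls its ratio was near 0, and the difference between the treatments was not tested. Insig1 rose by 0.53 (edgeR adjusted p = 1.04e-05). Of 16 lipid uptake genes 12 rose and none fell (median 0.67; 4 rose without the library block), among them Apoc1 (0.71) and Npc2 (0.38), and of 23 fatty acid oxidation genes 7 rose and 1 fell. Mfsd2a was at 23.7, 39.2, 40.5 and 30.3 CPM against 6.36, 11.5, 9.17 and 11.6 CPM (1.71 ± 0.16, edgeR adjusted p = 1.75e-13) and was the gene with the largest rise among those of at least 20 CPM. Fabp5 had 0.05 ± 0.04 (edgeR adjusted p = 0.492).

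Next after Mfsd2a came Cst8, a cystatin (1.53 ± 0.15), Ly6c2 (1.40 ± 0.16), Prcd (1.30 ± 0.18) and Fam69b (1.10 ± 0.17). Of the genes named in controls, Il33, Heatr1, Cpeb3 and Itih4 rose too, by 0.47, 0.65, 0.91 and 0.53. Lrg1 had -0.07 (edgeR adjusted p = 0.316), and Ptges fell by 0.75, the opposite of its direction in controls (edgeR adjusted p = 4.14e-09). Other named genes also went against their control direction. Among them, Vldlr, Abhd5, Jun, Slc12a2 and 2610028H24Rik were lower in control members and were called higher here. Of the 156 genes higher in control members, 66 rose in the score-high LPS cells (42.3%, beside 8.96% of all tested genes) and 15 fell (9.62%, beside 10.4%). Of the 129 lower ones tested, 35 fell (27.1%, beside 10.4%) and 18 rose (14.0%, beside 8.96%). The genes counted in controls had at least 20 CPM there. The shares beside them are over all tested genes, without that floor, so the 2 are not fully alike.

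Transitional genes were lower here as well, with 8 of 13 down and none up (median -0.72). Anxa1 was at 79.0, 68.5, 132 and 75.3 CPM against 221, 185, 376 and 278 CPM (-1.62 ± 0.08, edgeR adjusted p = 6.30e-27), and Krt8 fell by 0.77 and Clu by 0.88. For Lgals3 the value was -0.27 ± 0.12 (edgeR adjusted p = 0.0916) and for Areg -0.65 ± 0.31 (edgeR adjusted p = 0.207). Inflammatory genes were lower in the same cells: 11 of 17 chemokine and cytokine genes fell and 2 rose (median -1.37), 10 of 15 acute phase genes fell and 1 rose, and 8 of 8 MHC class II genes fell (median -0.56), beside 10.4% lower and 8.96% higher over all tested genes. Without the library block 2 chemokine, 5 MHC class II and 4 transitional genes fell and no chemokine gene rose.

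The monocyte attractant Ccl2 had the largest fall, 1.32, 0, 4.5 and 1.2 CPM against 16.4, 2.51, 77.8 and 70.4 CPM (-5.09 ± 0.28, edgeR adjusted p = 1.19e-23), followed by Tnfaip2 (-2.95 ± 0.31), the neutrophil attractant Cxcl3 (-2.31 ± 0.11), AW112010 (-2.23 ± 0.19) and Ccl20 (-2.03 ± 0.13). The score-high LPS cells also had more Sftpc, a median of 6.31, 7.82, 7.79 and 11.1% of UMIs against 3.08, 3.63, 3.84 and 3.81%, and fewer UMIs per cell, 6764, 7384, 7262.5 and 7418.5 against 7807.5, 8601, 9177 and 9429. The part of both in these results was not tested.

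**Figure D5:**
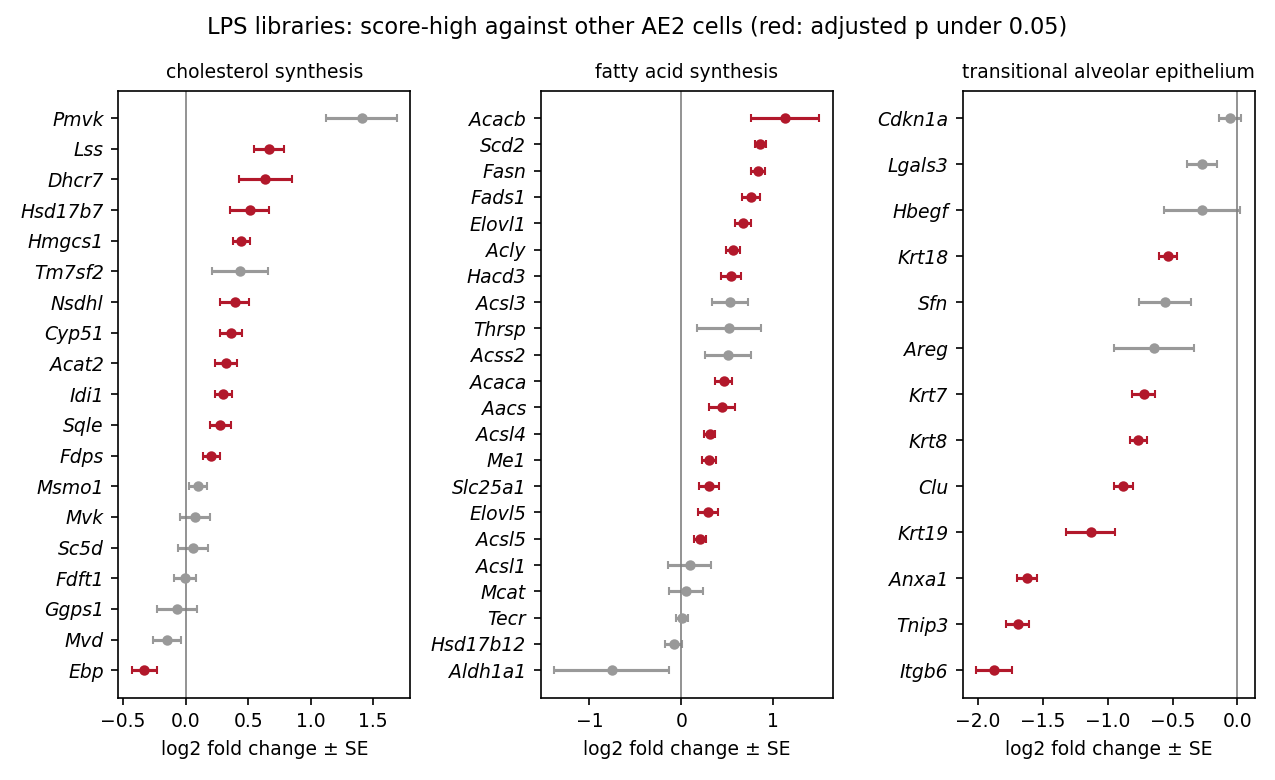
Log2 change ± SE (x axis), score-high against other AE2 cells of the LPS libraries, for tested genes of 3 lists (y axis; 19 of the 21 cholesterol genes are shown); red marks an edgeR adjusted p under 0.05. Fatty acid genes in red lie right of 0 (14 of 22), cholesterol genes in red lie right except Ebp (10 right), and transitional genes in red lie left (8 of 13).

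The score genes were read in LPS cells only where they had not chosen the cells. With the score built without each in turn, Scd1 was higher by 0.61 ± 0.08 (edgeR adjusted p = 4.47e-04), Mid1ip1 by 0.86 ± 0.08 (edgeR adjusted p = 1.90e-09) and Lrp2 had 0.95 ± 0.26 (edgeR adjusted p = 0.0944). Scd1 and Mid1ip1 passed and Lrp2 did not. Scd1 lies on chromosome 19 (44394455 to 44407879, minus strand, GRCm38), Mid1ip1 on X (10715013 to 10719690, plus strand), Lrp2 on 2 (69424340 to 69586065, minus strand) and Mfsd2a on 4 (122946850 to 122961188, minus strand), so the genes are not neighbours.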

How the data were processed

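The deposited values are raw UMI counts per gene and cell barcode in 8 tables of 31053 genes and 4 hashtag rows, made by the authors with Cell Ranger 3.1.0 (STAR) on mm10, and handled in Seurat 3.1 and 3.1.5 under R 3.6.3, per the submitters' processing notes. The hashtag rows were left out. Each table is 1 group on 1 lane, per the labels. No doublet caller was run, since the tables hold barcodes already assigned by hashtag. The list of cells that a separate text file describes was not used here.

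UMIs were summed over the cells of each class and library with Python 3.11.15. CPM ratios had 1 CPM added and a minimum of 20 CPM. Tests used edgeR 4.0.16 in R 4.3.3 (quasi-likelihood, robust, TMM, filterByExpr, Benjamini-Hochberg at 0.05), with DESeq2 1.42.0 as an alternative, and exact permutation tests for shares. Genes of the cell rule were given no test in the contrasts they define. The labels say that a number marks a shared lane, and same-lane members of the 2 ages had deviations correlating at r = -0.00581. With lane as a block, 42 genes were higher and 52 lower in old members.

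The members and the 23 gene lists were chosen with earlier results of these data known. Named genes are the rule genes, the 10 highest and 10 lowest of those counted in controls, up to 4 per list by size of ratio, up to 5 age genes per direction, the genes of the interaction, the 5 largest LPS changes per direction of at least 20 CPM, and the paralogs Scd2, Scd3, Scd4 and Thrsp. Other list members named by their place in a pathway, the surfactant and AE2 genes, and Ebp were chosen after their values were seen. On simulated counts, the age test recovered 77% of 2-fold and 98% of 4-fold changes (7852 genes), the interaction 30 and 83% (9743 genes), the LPS test 91 and 99% (9866 genes), and the control rule 92% of 1.5-fold and 100% of 2-fold changes (4491 genes). Some genes that the rule names are not reported here, in the text or the plots. Promoters are from RefSeq on GRCm38.p6. Alternatives were other cuts, scores, filters, scalings, thinning to 3000 UMIs and leaving out each library.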

Additional observations from a re-analysis of the deposited data

Results flagged for a closer look

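For 2 genes the age effect in the lipogenic cells differed from that in the other AE2 cells by edgeR's own interaction term. For Nrn1 the difference was 0.66 on the log2 scale, positive in all 4 leave-outs of a library (0.55 to 0.72), and it lost its call with DESeq2 (0.64), without the library block (0.72), without young control 2 (0.55) and without old control 2 (0.64). For Meg3, a long noncoding RNA, the difference was -3.66, with -4.12 from DESeq2 and -3.75 without the block, neither past the threshold, and -9.95 to -1.98 over the leave-outs. The Meg3 value rests on 5, 26, 6 and 0 UMIs in 1, 5, 1 and 0 member cells of young control 1, young control 2, old control 1 and old control 2, with 15 of the 26 in one cell.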

How the results depend on the processing

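In controls, 156 higher and 130 lower genes became 20 and 34 at 1.5-fold, 423 and 738 at a minimum of 1 CPM, 84 and 91 without Scd1 in the score, and 210 and 198 in the top 10% of the score, with 152 to 223 and 149 to 204 over the leave-outs of a library. With Lyz1-high cells left out of the others, an alternative chosen after seeing the data, there were 193 and 142 (146 and 114 shared). The age difference in the share of members was -0.358 points in the top 10% and -3.58 to 5.35 over the leave-outs, and the drop after LPS was -19.5 to -17.0.

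For age in members, 28 and 36 genes became 4 and 3 with DESeq2, 16 and 27 after thinning, and 4 to 34 and 3 to 39 over the leave-outs. With the replicate block for lane there were 42 and 52. The interaction gave 0 genes with DESeq2 (14 at an unadjusted p under 0.05), 0 with no replicate block in edgeR (401 at an unadjusted p under 0.05) and 2 to 7 over the leave-outs.

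For score-high LPS cells, 883 and 1025 became 352 and 491 with DESeq2, 183 and 212 with no replicate block, 4 and 394 with the control cuts (17 cells), 528 and 662 when chosen on one portion of the UMIs, 289 and 448 after thinning, 623 and 663 without Scd1, and 401 to 809 and 552 to 947 over the leave-outs. With the control cuts these genes changed sign: S100g -0.36, Muc1 -0.36, Jun -0.27, Stmn1 -0.79, Scnn1a -0.27, Apoc1 -0.0496, Bnip3 -0.41, 2610028H24Rik -0.21, Itih4 -0.79, Me1 -0.19, Cldn18 -0.68, Abhd5 -1.60, Sec14l3 -8.90, Heatr1 -0.40, Npc2 -0.0313, Ly6c2 -1.43, Vegfa -0.49, Il33 -1.11, Cpeb3 -0.75, mt-Nd1 -0.55, mt-Nd2 -0.26 and mt-Nd3 -0.42. Choosing on one portion turned mt-Nd6 to -0.000604, and thinning turned Cxcl2 in controls to 0.10. The cause was not tested, beyond the fewer cells and UMIs these settings leave. Of the named genes' other values, 1213 of 1465 in LPS kept direction and side, as did 64 of 98 with age, and 1587 of 1734 in controls moved by less than the SD.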
